A study of Mus musculus with 48 samples.

Results

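The comparison described here sets the 3x mutein against WT IL-2 in splenic regulatory T cells (Tregs) of mice whose MHC class II was blocked. The members were chosen by their labels alone: Treg libraries with the MHC II block and either 3x (4 libraries) or WT IL-2 (4 libraries), 8 of the 48 libraries of the study. All mice were female C57BL/6, an inbred laboratory strain, 8 to 12 weeks old. Each had received 2 intraperitoneal doses of 500 µg of the MHC II-blocking antibody and 1 subcutaneous dose of 25 µg of an IL-2 molecule, and the spleens were taken on day 4. WT IL-2 is human IL-2 fused to an antibody Fc part, and 3x is the same fusion with 3 amino acid changes that weaken its activation of STAT5. Injected dose and harvest time are therefore matched, and both groups carry the block. Exposure after injection may not be matched. In separate mice the paper found that this mutein stayed in serum longer than the unmutated fusion and signalled for longer. The part of exposure in the contrasts below was not tested. For reference, values are also given from blocked mice that received PBS or H16R, a mutein less attenuated than 3x, and from the isotype antibody arm, with 4 libraries each of WT IL-2 and 3x. By the study's methods each group held 4 mice and each mouse gave its own sample, although 2 of the isotype WT IL-2 libraries, here 3a and 3b, carry the same number in their labels. The Tregs were taken by magnetic selection for CD25 and not by flow sorting, so other CD25-bearing or carried-over cells can be present. Aliquots were checked by Foxp3 staining in the study, and most were found to be largely Foxp3+.

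Tregs are CD4 T cells that restrain immune responses and that depend on IL-2 for survival, growth and expression of the transcription factor Foxp3. They bind IL-2 through a receptor of 3 chains (Il2ra, also called CD25, with Il2rb and Il2rg), which signals through Jak kinases and STAT5. Their T cell receptor (TCR) is engaged by peptides held on MHC class II, so the blocking antibody lowers this second input. Effector Tregs, which have seen antigen and IL-2, carry suppressive molecules such as Il10, Ctla4 and granzyme B and leave the recirculating pool.

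The depth was 35.46 to 46.57 M (mega) expected counts with 3x (median 43.26) and 31.25 to 51.24 M with WT IL-2 (median 42.65). CPM values are reads per gene scaled to the library total after adjustment by TMM, a normalization between libraries. WT IL-2 replicate 1 stood apart before any comparison. Its 15 monocyte and macrophage markers summed to 1527 CPM, against 282 to 352 in the other 3 WT IL-2 libraries and 201 to 222 with 3x. Its B cell markers summed to 860 CPM, against 112 to 166 and 73.8 to 160.0, and its neutrophil markers to 300.5 CPM, against 5.37 to 38.3 and 1.03 to 5.74. The summed Treg markers were 3086 CPM in this library, 3837 to 4055 in the other WT IL-2 libraries and 4797 to 5300 with 3x. The other WT IL-2 libraries also exceeded the 3x libraries in their plasma cell sum (14310 to 34110 against 7193 to 13630 CPM) and their NK cell sum (66.5 to 77.6 against 44.4 to 57.4 CPM). The 2 CD8, 5 stroma and 10 T cell markers did not separate the groups in their sums. Of the 7 T cell markers tested 6 were higher and 0 lower with 3x (4 and 0 without that library, median 0.21), and their part in the rises of TCR genes was not tested. In contrast 8 of 9 dendritic cell, 5 of 6 erythroid and 2 of 2 megakaryocyte markers tested were lower with 3x, or 7, 1 and 2 without that library. 3x replicate 2 differed more from the other 3x libraries than these did from each other (chi-square per gene of 16.5 to 32.5 against 7.84 to 10.2). Results are therefore given for all 8 libraries, and where a list's counts or a named gene's call changed, or a called gene's value moved by over 1.5 times, also without WT IL-2 replicate 1, which is called that library in those places. No pair of libraries of 1 group agreed within sampling noise. In bulk RNA, fewer cells of a type and less RNA per cell cannot be told apart.

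**Figure D1:**
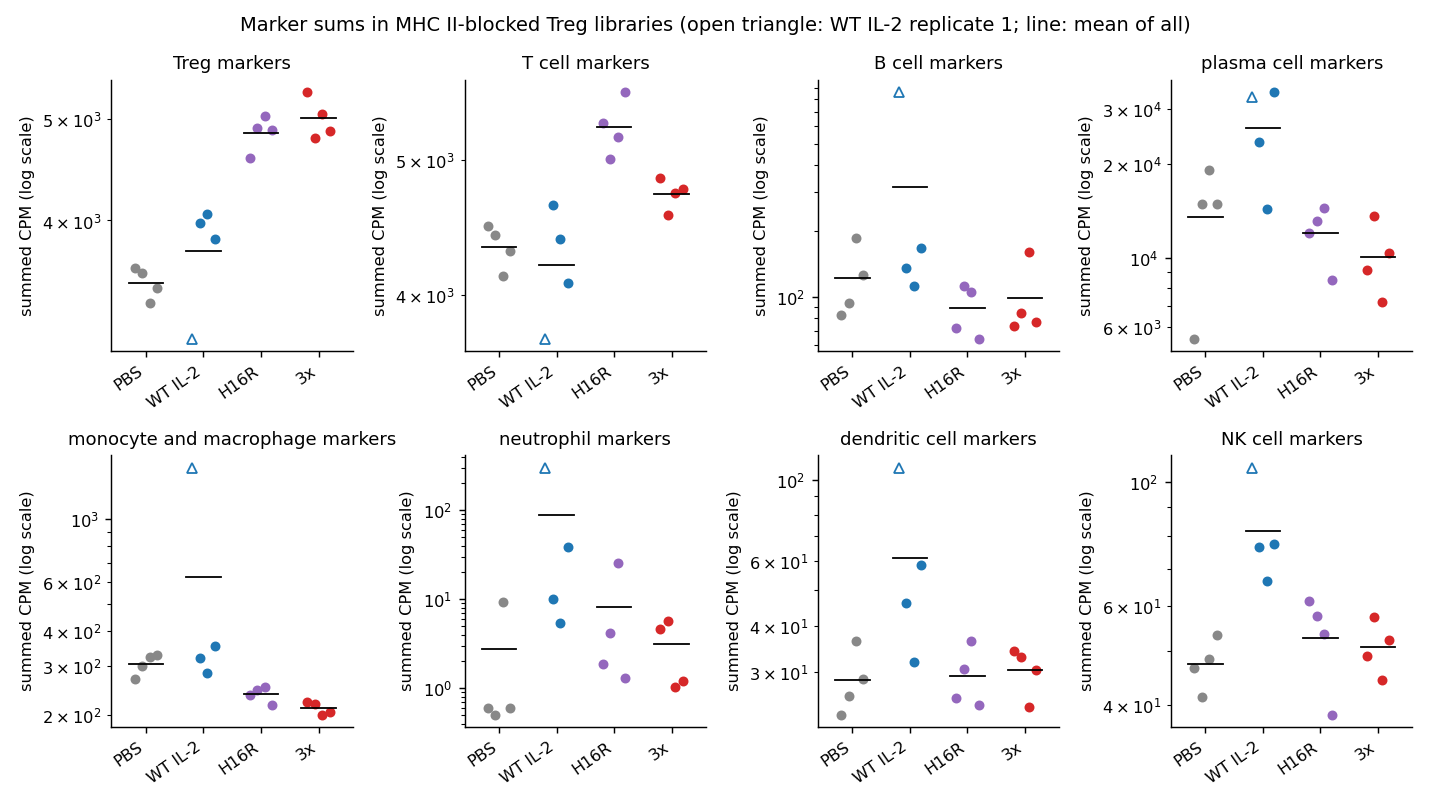
Summed CPM (log scale) of the marker genes of 8 cell types in the 16 MHC II-blocked Treg libraries, by treatment, with a line at the mean. The open triangle, WT IL-2 replicate 1, lies above all other libraries for B cell (860), monocyte and macrophage (1527) and neutrophil (300.5) markers and below them for Treg markers (3086).

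Most genes tested differed in expression between the 3x and WT IL-2 libraries, and the part of other cell types in this was not tested. At an adjusted p below 0.1 in edgeR's quasi-likelihood test, 8511 of 12392 genes (68.7%) differed, 3716 higher (30.0%) and 4795 lower (38.7%) with 3x. The excess of falls depended on the setting, with 3925 higher and 3839 lower when only the groups compared were fitted, 4706 and 4418 with all biotypes and 4386 and 4257 with no CPM filter. The CPM of the 4 and 4 libraries did not overlap for 6037 genes (48.7%). A log2 fold change of at least 1 was reached by 373 higher and 800 lower genes. Without WT IL-2 replicate 1, 8068 of 12349 genes (65.3%) differed, 3632 higher (29.4%) and 4436 lower (35.9%), and the large falls shrank to 451 while the large rises numbered 402. In both fits 7671 genes were called in the same direction. Only 4 were called in opposite directions, Gfra2, Pilra, Slc45a3 and Tmem26, each at 10.6 to 19.1 CPM in WT IL-2 replicate 1 and below 1 CPM in the other WT IL-2 libraries. The median log2 fold change over all genes was −0.06. With so many genes called, a count of calls in a gene list was read against the shares above. Members said to lead a list are those with the largest called change among genes averaging over 5 CPM.

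Most of the largest rises, Gzmb excepted, were in genes with few reads in Tregs of WT IL-2-treated mice. Ifitm1, an interferon-inducible membrane protein that restricts viral entry, was at 6.90, 3.51, 2.60 and 2.40 CPM with WT IL-2 and at 129, 60.4, 123 and 154 CPM with 3x. The groups were far apart, a 31.5-fold rise (log2 fold change 4.97 ± 0.38 SE, adjusted p = 2.78e-11). Its relatives lie beside it on chromosome 7 (GRCm38; Ifitm1 at chr7:140967221-140969825, Ifitm2 at chr7:140954837-140955987 and Ifitm3 at chr7:141009586-141010770). Ifitm2 rose by 3.22 ± 0.27 and Ifitm3, chosen after its values were seen, by 2.83 ± 0.34 on the log2 scale. Reads could be shared between these closely related genes, so their separate values carry some uncertainty.

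Epha3, an ephrin receptor tyrosine kinase, was at 0.42, 0.65, 0.44 and 0.18 CPM with WT IL-2 and 11.3, 5.81, 10.4 and 11.7 CPM with 3x. The gene passed from near absence to a clear level in every 3x library (log2 fold change 4.52 ± 0.36, adjusted p = 7.51e-11). Amotl1, an angiomotin-family protein of cell junctions, went from 1.35 to 1.94 CPM to 27.5 to 32.1 CPM (4.22 ± 0.18). Ggt1, a gamma-glutamyltransferase of glutathione metabolism, rose by 3.92, the galectin gene Lgals7 by 3.86, Gcg, which encodes the glucagon precursor, by 3.79, the secreted-pathway gene Fam20a by 3.63 and 1500009L16Rik by 3.61. These transcripts had low counts with WT IL-2, at most 10.9 CPM in any library.

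Il13, a type 2 cytokine, was at 1.90, 1.95, 1.98 and 1.27 CPM with WT IL-2 and at 16.8, 15.8, 19.5 and 25.0 CPM with 3x, a rise of 3.44 ± 0.27 (adjusted p = 3.71e-11). Il4, named after its values were seen, rose by 2.61 ± 0.26. Il21, the cytokine of helper T cells that act on B cells, was at 2.65 to 5.14 CPM with WT IL-2 and 24.0 to 38.1 CPM with 3x (3.04 ± 0.41). Vdr, the vitamin D receptor, rose by 3.06 ± 0.31, with 3.55 to 6.87 CPM against at least 32.3 CPM in every 3x library. The ranges did not overlap for any of these 4 genes, though for Il13 and Vdr this was a condition for being named.

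**Figure D2:**
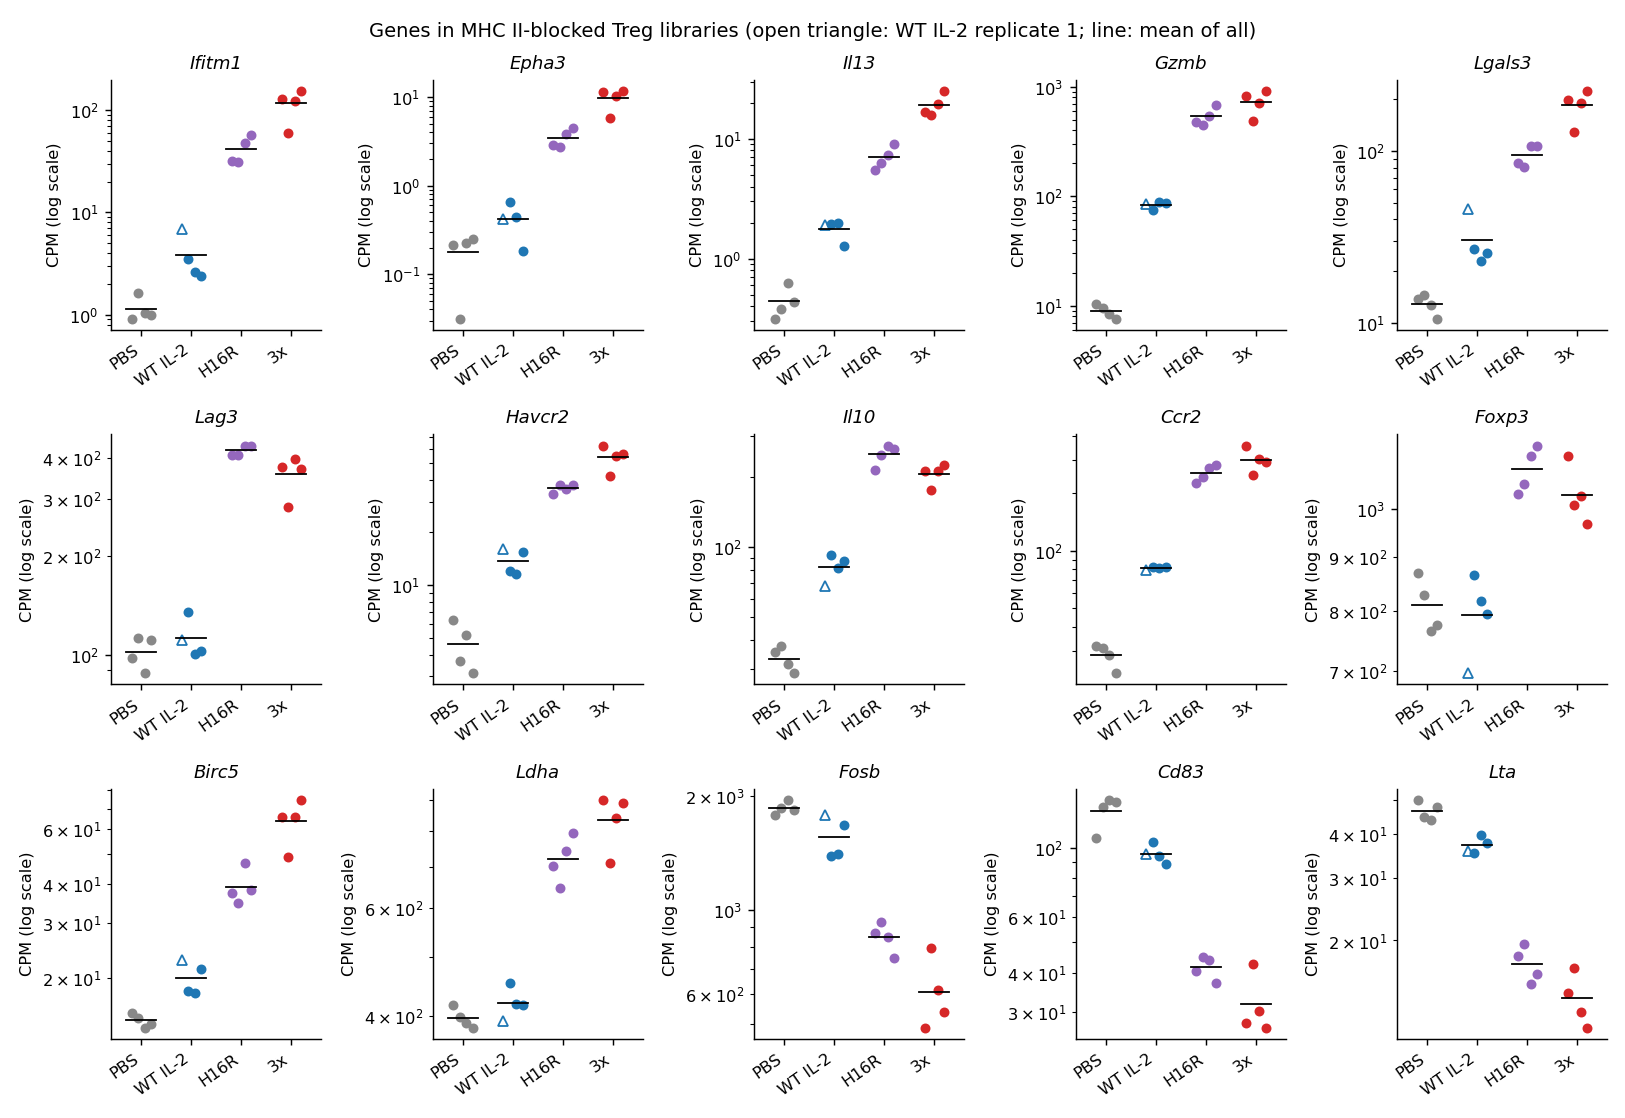
CPM (log scale) of 15 genes in the 16 MHC II-blocked Treg libraries, by treatment, with a line at the mean and an open triangle for WT IL-2 replicate 1. In all 15 panels the 4 WT IL-2 and the 4 3x libraries do not overlap, and the H16R libraries lie on the 3x side of the WT IL-2 mean. For Ifitm1, Epha3, Il13 and Gzmb the lack of overlap was a condition for being named, so it is no separate result.

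Genes of Treg suppression rose more often than they fell. Of 19 tested suppressor molecules 11 were higher and 4 lower with 3x (11 and 6 without WT IL-2 replicate 1), against 30.0% and 38.7% of all genes, with a median log2 fold change of 0.39. Gzmb, the granzyme that kills target cells, was at 84.8, 75.0, 87.5 and 85.8 CPM with WT IL-2 and 819, 481, 706 and 909 CPM with 3x. This was an 8.75-fold rise (3.13 ± 0.24, adjusted p = 2.84e-11), and the lowest library of the 3x group was replicate 2. Lgals1, an immunosuppressive galectin, went from 222 to 260 CPM to 736 to 1097 CPM (1.97 ± 0.15). Il10, the suppressive cytokine, was at 68.5, 92.4, 81.1 and 87.5 CPM with WT IL-2 and 213, 177, 212 and 226 CPM with 3x (1.33 ± 0.14, adjusted p = 1.12e-08). Lag3, an inhibitory receptor that binds MHC II, rose by 1.66 ± 0.20, from 100 to 135 CPM to 283 to 396 CPM. Ctla4, which strips costimulatory ligands from other cells, rose by 0.56 ± 0.10, or 0.44 without WT IL-2 replicate 1. The falls included Ebi3, a subunit of IL-35 (−1.05), and Penk, the enkephalin precursor (−0.98). Lrrc32, which carries latent TGF-beta on the surface, and Areg, a tissue-repair growth factor, were not called, with 95% intervals of −0.08 to 0.18 and −0.20 to 0.27.

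The granzyme and cytotoxic list, which shares Gzma, Gzmb and Prf1 with the suppressor list, moved alike, with 10 of 13 genes higher and 1 lower (9 and 1 without that library, median 0.51). Nkg7, a granule membrane protein, rose by 1.31 and Ctsw, a cathepsin of cytotoxic cells, fell by 0.51. The 6 NK cell markers went the other way in the same libraries, with 0 higher and 5 lower (0 and 3 without WT IL-2 replicate 1). Of these Klra8 was at 7.46 CPM in that library and at most 0.37 CPM in the other WT IL-2 libraries. The 2 CD8 markers, Cd8a and Cd8b1, summed to 10.3 to 45.8 CPM with WT IL-2 and 13.3 to 35.7 CPM with 3x, and neither was called. Without WT IL-2 replicate 1 Cd8b1 was called higher.

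Of 17 genes in the S100, annexin and galectin list, calcium- and sugar-binding proteins raised in activated and tissue T cells together with the intermediate filament genes Vim and Lmna, 14 were higher and 2 lower (15 and 1 without that library, median 0.87, 14 with no overlap). Lgals3, a galectin also abundant in macrophages, was at 46.0, 27.0, 22.8 and 25.5 CPM with WT IL-2 and 197, 129, 190 and 222 CPM with 3x. Its rise of 2.62 ± 0.19 became 2.88 without WT IL-2 replicate 1, the library highest in macrophage markers. The falls were small, with Lgals8 at −0.11 and Lmna at −0.24, and Lmna was no longer called without WT IL-2 replicate 1.

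Receptors of costimulation and inhibition changed in both directions, 11 of 18 higher and 6 lower (9 and 6 without that library). Havcr2, which encodes TIM-3, a receptor of strongly activated T cells, was at 16.1, 12.1, 11.6 and 15.4 CPM with WT IL-2 and at 62.9, 42.0, 54.9 and 56.0 CPM with 3x (1.97 ± 0.16, adjusted p = 9.22e-11). Pdcd1, the PD-1 receptor, rose by 1.22 ± 0.11, and Icos, the costimulatory receptor of effector Tregs, by 0.87 ± 0.11, from 180 to 274 CPM to 406 to 460 CPM. Cd160 (−0.99) and Cd226 (−0.69), receptors shared with NK cells, fell. Klrg1, a marker of terminal differentiation, was at 78.5 to 109 CPM with WT IL-2 and 101 to 128 CPM with 3x, ranges that overlapped, and its call (0.33 ± 0.17, adjusted p = 0.0967) was lost without WT IL-2 replicate 1 (0.27, adjusted p = 0.21). Among 14 TNF receptor family genes 6 were higher and 4 lower (5 and 4 without that library), with Tnfrsf4 (OX40, 0.69), Tnfrsf1b (TNFR2, 0.66), Tnfrsf9 (4-1BB, 0.64) and Tnfrsf18 (GITR, 0.56 ± 0.07) among the rises and Tnfrsf25 (−0.66) and Tnfrsf1a (−0.34) among the falls.

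The receptor for IL-2 itself was higher, and of 7 receptor, Jak and STAT5 genes 4 were higher and 0 lower. Without WT IL-2 replicate 1 they were 4 and 1, the fall being the kinase Jak1 (−0.09, adjusted p = 0.0988). Il2ra was at 311, 372, 423 and 382 CPM with WT IL-2 and 836, 628, 797 and 907 CPM with 3x, a 2.13-fold rise (1.09 ± 0.09, adjusted p = 3.52e-10). Il2rb went from 767 to 866 CPM to 1217 to 1390 CPM (0.70 ± 0.06) and Il2rg from 541 to 613 CPM to 660 to 738 CPM (0.29 ± 0.05). The transcript of the signal transducer Stat5b did not differ measurably (0.01 ± 0.04, 95% interval −0.08 to 0.09). Of 12 STAT5 target and feedback genes 6 were higher and 3 lower. Socs2, a feedback inhibitor of the pathway, went from 44.1 to 59.3 CPM to 85.0 to 112 CPM (1.02 ± 0.13) and the cytokine Osm rose by 1.22. In contrast Lta, a lymphotoxin subunit, was at 35.9, 35.4, 39.8 and 37.8 CPM with WT IL-2 and 11.3 to 16.8 CPM with 3x. It fell by 1.44 ± 0.10 on the log2 scale. The survival gene Bcl2 fell by 0.54.

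The Treg label held in both groups, with lineage factors split in direction. Foxp3 (chrX:7573644-7595245) was at 697, 865, 817 and 794 CPM with WT IL-2 and 1125, 1009, 1029 and 969 CPM with 3x, so that every 3x library was above every WT IL-2 library. The rise was 0.38 ± 0.06 (adjusted p = 1.76e-06), or 0.32 without WT IL-2 replicate 1, which was the lowest library. Ikzf2, the Helios factor of thymus-derived Tregs, was not called (−0.07 ± 0.10, 95% interval −0.28 to 0.14). Of the 15 lineage factors 6 were higher, led by Runx3 and Ikzf3 (0.41 each), and 5 lower, led by Tcf7 (−0.61), a factor of naive T cells, and Ikzf4 (Eos, −0.37).

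Regulators of the effector Treg state did not move as a block, with 6 of 19 higher and 10 lower (7 and 9 without that library, median −0.11). Pparg, the nuclear receptor of fat-tissue Tregs, rose by 1.77 ± 0.25, or 2.34 without WT IL-2 replicate 1. Maf, which drives Il10, rose by 1.07, Batf by 0.84 and Prdm1 (Blimp-1) by 0.85 ± 0.09, from 50.3 to 65.2 CPM to 96.5 to 116 CPM. Irf4, their partner, was not called (−0.11 ± 0.11, 95% interval −0.34 to 0.12). Zeb2, a zinc finger factor of terminal differentiation, fell by 1.18, with −0.39 without WT IL-2 replicate 1. In the tissue Treg list, 6 of 14 genes were higher and 2 lower (5 and 2 without that library). Il1rl1, which encodes the IL-33 receptor, went from 57.4 to 74.4 CPM to 130 to 142 CPM (1.04 ± 0.11) and Ccr8 rose by 0.41 ± 0.11 with overlapping ranges. Rora (−0.38) and Cd44 (−0.34) fell.

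Homing genes changed in both directions, with a large rise in an inflammatory chemokine receptor. Ccr2, a receptor for inflammatory chemokines, was at 79.3, 82.0, 81.7 and 82.5 CPM with WT IL-2 and at 355, 250, 301 and 290 CPM with 3x (1.88 ± 0.13, adjusted p = 4.53e-12). The groups were far apart, and replicate 2 was the lowest of the 3x libraries. In the list of chemokine and related receptors, 8 of 17 were higher and 5 lower (9 and 5 without WT IL-2 replicate 1), the falls including Ccr6 (−1.21) and Cxcr4 (−0.92). Of 13 naive and recirculation genes 3 were higher and 8 lower (median −0.34). Il7r, the IL-7 receptor of resting T cells, fell by 0.91 ± 0.12 and Ccr7, the lymph node homing receptor, by 0.80 ± 0.13. S1pr1, the receptor for exit from lymphoid tissue, rose by 0.73 and Igfbp4 by 0.88. Among integrins and adhesion molecules 11 of 18 were higher and 4 lower (10 and 4 without that library), with the collagen receptors Itga1 (1.44) and Itga2 (1.01) leading the rises and Itgb8 falling by 0.73.

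The G2/M genes of the cell cycle gave the most uniform rise among the lists. All 38 G2/M genes were higher with 3x, none overlapped between groups, and the median was 1.29 (1.32 without WT IL-2 replicate 1), with values from 0.86 to 1.73. Ube2c, the ubiquitin conjugating enzyme of mitotic exit, was at 31.1, 21.8, 21.3 and 24.8 CPM with WT IL-2 and 83.3, 64.2, 87.3 and 92.6 CPM with 3x (1.73 ± 0.17, adjusted p = 2.31e-09). Birc5, or survivin, was at 22.8, 18.2, 17.8 and 21.4 CPM and at 66.0, 48.9, 65.5 and 74.5 CPM (1.67 ± 0.16). Mki67, the proliferation antigen, went from 219 to 311 CPM to 504 to 610 CPM (1.02 ± 0.13). Of 46 DNA replication genes 36 were higher and 2 lower (35 and 2 without that library, median 0.36), including Rrm2, a subunit of ribonucleotide reductase (1.25), and Pole2, a polymerase epsilon subunit (0.99), among the rises and Rfc1 (−0.23) and Pold2 (−0.18) as the falls. Among cyclin D, CDK, inhibitor and retinoblastoma family genes 10 of 16 were higher and 3 lower. The inhibitors Cdkn2c (2.83-fold, not on the log2 scale) and Cdkn1a (log2 fold change 1.08) led the rises. The falls included Ccnd1 (−0.83, or −0.52 without that library) and Cdkn1b (−0.44). Of 20 DNA methylation and Polycomb genes 3 were higher and 9 lower (3 and 11 without that library). The maintenance methylation genes Uhrf1 (0.76) and Dnmt1 (0.54), which act at the replication fork, rose, while Tet1 (−0.65) and Cbx7 (−0.53) fell.

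Because the G2/M genes moved together, their promoters were read from RefSeq's table for GRCm38.p6, taking 1 window of 250 bases before each gene start. Mitotic promoters are known for CCAAT boxes, bound by NF-Y, and for the cell cycle homology element, here the word TTTGAA, and both words were searched on both strands. A window was found for 32 of the 38 genes. CCAAT was present in 28 of the 32 (87.5%) and TTTGAA in 11 (34.4%), against 36.6% and 10.8% of the windows of 9764 tested genes. CCAAT was also in 14 of 16 windows of sterol synthesis genes (87.5%), in 21 of 37 of DNA replication genes (56.8%) and in 16 of 55 of ribosomal protein genes (29.1%). TTCNNNGAA, the core of the site that STAT proteins bind, was in 0 of the 32 G2/M windows and in 5.9% of all windows. Neither word was particular to the G2/M list. CCAAT was in 16 of 20 chaperone windows (80.0%) and 6 of 7 of MHC class II genes (85.7%), and TTTGAA in 6 of 13 of the Bcl2 list (46.2%), 5 of 13 of the chemokine receptor list (38.5%), 4 of 11 of the granzyme list (36.4%) and 5 of 14 of the suppressor list (35.7%). Of the remaining words, TGACNNNGC was in 7 of the 32 G2/M windows (12.1% of all windows), the interferon-stimulated response element in 3 (2.9%) and a longer word holding CCAAT on the other strand in 1 (1.0%). In all 7 words were searched, and a match is a description of letters, not of binding. The windows of 3 G2/M genes that rose, Ube2c (chr2:164769679-164769928, plus strand), Cdc20 (chr4:118437344-118437593, minus strand) and Ccnb1 (chr13:100786487-100786736, minus strand), and of the sterol gene Hmgcs1 (chr13:119690101-119690350, plus strand) are printed with the matches in capitals. For Hmgcs1 the second word is TCACNCCAC, the core of the sterol regulatory element, found in 1 of the 16 sterol windows, that of Hmgcs1, and in 0.9% of all windows. The Ube2c and Hmgcs1 windows hold 6 and 3 CCAAT matches, counted on both strands, so that overlapping matches count separately, and the Cdc20 and Ccnb1 windows hold 2 each.
Ube2c: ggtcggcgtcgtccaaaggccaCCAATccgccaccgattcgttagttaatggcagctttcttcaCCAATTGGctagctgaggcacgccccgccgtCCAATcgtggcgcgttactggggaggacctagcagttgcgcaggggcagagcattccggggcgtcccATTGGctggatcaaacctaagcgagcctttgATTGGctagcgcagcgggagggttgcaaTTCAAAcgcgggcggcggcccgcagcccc
Cdc20: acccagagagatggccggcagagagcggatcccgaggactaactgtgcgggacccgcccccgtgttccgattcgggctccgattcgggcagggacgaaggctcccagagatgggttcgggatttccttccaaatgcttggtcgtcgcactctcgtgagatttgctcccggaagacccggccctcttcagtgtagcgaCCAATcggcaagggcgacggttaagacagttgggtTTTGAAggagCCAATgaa
Ccnb1: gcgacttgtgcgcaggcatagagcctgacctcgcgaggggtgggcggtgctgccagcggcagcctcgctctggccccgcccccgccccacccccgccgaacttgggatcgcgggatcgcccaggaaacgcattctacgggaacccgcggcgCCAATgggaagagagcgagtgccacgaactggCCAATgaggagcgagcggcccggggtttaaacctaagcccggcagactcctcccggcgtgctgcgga
Hmgcs1: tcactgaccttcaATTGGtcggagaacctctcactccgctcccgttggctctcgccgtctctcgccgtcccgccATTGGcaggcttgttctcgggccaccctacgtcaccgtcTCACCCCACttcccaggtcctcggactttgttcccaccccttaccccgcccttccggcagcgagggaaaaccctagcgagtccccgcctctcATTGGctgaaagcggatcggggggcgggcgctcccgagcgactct
Ccnb1, cyclin B1, and Cdc20, the activator of the anaphase-promoting complex, rose by 1.60 ± 0.16 and 1.16 ± 0.14. They and Hmgcs1 were picked for these windows after their values were seen.

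Genes of sterol synthesis and its control rose with the cell cycle genes, with 20 of 23 higher and 1 lower (median 0.54). Pmvk, phosphomevalonate kinase, rose by 0.96, Sqle, squalene epoxidase, by 0.84 and Hmgcs1, which makes HMG-CoA, by 0.69 ± 0.08, while Insig1, a brake on the pathway, fell by 0.35. Fatty acid synthesis was mixed, with 7 of 14 genes higher and 3 lower (7 and 2 without WT IL-2 replicate 1). Elovl1 (0.74) and Elovl5 (0.48), fatty acid elongases, rose, and Acsl3 (−0.35) and Fasn, the synthase itself (−0.20), fell.

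Genes of energy metabolism were mostly higher with 3x, those of the respiratory chain by small amounts each. Of 37 subunits of respiratory complex I 28 were higher and 0 lower (median 0.28), and of 38 subunits of complexes II to V 33 were higher and 1 lower (median 0.34). Ndufc1 (0.66) and Ndufb7 (0.58) led the former, and Cox5a (0.56) and Cox6b1 (0.50), subunits of cytochrome oxidase, the latter, with Sdha (−0.09) as the only fall. In glycolysis 17 of 22 genes were higher and 4 lower. Ldha, lactate dehydrogenase A, was at 392, 453, 418 and 417 CPM with WT IL-2 and 900, 710, 840 and 891 CPM with 3x (0.99 ± 0.08, adjusted p = 3.24e-11). The lactate exporter Slc16a3 rose by 1.32, whereas Ldhb (−0.54) and Hk2 (−0.45) fell. The proteasome, which degrades ubiquitinated proteins, had 35 of 36 subunits higher and 0 lower (34 and 0 without WT IL-2 replicate 1, median 0.35), led by Psmd13 (0.69) and Psmb5 (0.58).

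Ribosome genes went the other way. Of 75 cytoplasmic ribosomal proteins 0 were higher and 44 lower (median −0.18), and 40 were lower without WT IL-2 replicate 1. Rps27 was at 1393, 1362, 1252 and 1152 CPM with WT IL-2 and 828, 900, 888 and 850 CPM with 3x (−0.57 ± 0.13, adjusted p = 0.000329), and Rps24 fell by 0.39. These genes have many processed copies in the genome, and their counts depend on how reads were assigned. Of 42 ribosome biogenesis genes 26 were lower and 4 higher (median −0.19), with falls in Gnl3 (nucleostemin, −0.75) and Myc, a driver of ribosome production (−0.54), and small rises in Bysl (0.24) and Rrp1b (0.15). Genes for chaperones and their control fell in 12 of 25 cases and rose in 3 (14 and 3 without that library). The heat shock genes Hspa1a and Hspa1b fell by 2.04 and 1.64, or by 1.05 and 0.93 without WT IL-2 replicate 1, where Hspa1a was at 152 CPM against 28.6 to 32.3 CPM in the other WT IL-2 libraries. Pdia3 (0.26) and Dnajb11 (0.21), chaperones of the endoplasmic reticulum, rose.

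In the TCR pathway, receptor-proximal genes rose more often than they fell, by small amounts. Of these components 12 of 23 were higher and 3 lower (median 0.11), changing to 10 and 5 without WT IL-2 replicate 1. Their list shares Cd3d, Cd3e, Cd3g, Cd4 and Lck with the T cell markers, and the part of T cell content was not tested. The kinase Zap70 went from 232 to 265 CPM to 305 to 358 CPM (0.48 ± 0.06, adjusted p = 6.03e-08), and the adaptors Sla (0.57) and Lcp2 (SLP-76, 0.21 ± 0.05) also rose, while Plcg1, a phospholipase, fell (−0.15). Trac, the TCR alpha constant gene, was tested with all biotypes, a fit that raised the coding genes by a median of 0.08. It was at 139, 175, 161 and 151 CPM with WT IL-2 and 189, 170, 178 and 173 CPM with 3x, ranges that overlapped. Its call (0.26 ± 0.11, adjusted p = 0.0407) was lost without WT IL-2 replicate 1 (0.20, adjusted p = 0.15). In the calcium branch 10 of 20 genes were higher and 3 lower. The store sensor Stim1 went from 112 to 116 CPM to 149 to 162 CPM (0.44 ± 0.04) and the channel Orai1 from 32.6 to 36.7 CPM to 42.5 to 47.3 CPM (0.40 ± 0.06), with rises in the calmodulin gene Calm3 (0.69) and in Nfatc3 (0.18 ± 0.05), and falls in Itpr3 (−0.25) and Orai2 (−0.22).

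The genes that TCR signalling switches on were mostly lower. Of 17 TCR response genes 11 were lower and 2 higher (median −0.40). Cd83 was at 95.4, 104, 94.1 and 88.5 CPM with WT IL-2 and 27.6, 42.4, 30.1 and 26.7 CPM with 3x (−1.59 ± 0.17, adjusted p = 8.79e-09), and Nr4a2 fell by 0.77. Nr4a1, an immediate response gene often used as a readout of TCR engagement, was not called (−0.17 ± 0.11, 95% interval −0.39 to 0.05), but it was by limma-voom (−0.22, adjusted p = 0.0643) and without 3x replicate 2 (−0.27, adjusted p = 0.0341). In the same list the 2 that rose were Tnfrsf9 (0.64) and Ier3 (1.41, or 2.24 without WT IL-2 replicate 1). Of 13 AP-1 genes 9 were lower and 2 higher (median −0.57). Fosb was at 1779, 1384, 1401 and 1675 CPM with WT IL-2 and 489, 794, 615 and 538 CPM with 3x (−1.36 ± 0.12, adjusted p = 3.52e-10), and Atf3, a stress-induced member, fell by 2.03 ± 0.20, or 1.74 without WT IL-2 replicate 1. The members that rose were Batf and Mafg (0.36), which pair with other basic leucine zipper proteins.

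Of 16 genes for NF-kB subunits, IkB proteins and their regulators 13 were lower and 3 higher (11 and 3 without WT IL-2 replicate 1, median −0.21). Rel, the c-Rel subunit needed for Treg development, was at 276, 270, 313 and 317 CPM with WT IL-2 and 166, 226, 184 and 128 CPM with 3x (−0.74 ± 0.15, adjusted p = 0.000173). The regulators in the list, Tnfaip3, Traf1, Traf3, Birc3 and Map3k14, were all among the falls. Nfkbid, a nuclear IkB protein, fell by 0.48 ± 0.08 and the feedback inhibitor Tnfaip3 by 0.67, whereas Bcl3 (0.94) and Nfkb1 (0.42) rose. The call for Rela was lost without WT IL-2 replicate 1 (−0.08, adjusted p = 0.0675, against −0.07, adjusted p = 0.152). In PI3K, Akt and mTOR signalling 6 of 18 genes were higher, led by Akt1 (0.46) and Akt2 (0.42), and 9 lower (6 and 8 without that library), led by Rictor (−0.41) and Tsc1 (−0.40). In MAPK feedback 3 of 13 genes were higher, led by Dusp7 (0.46) and Dusp5 (0.45), and 5 lower (3 and 6 without that library), led by Dusp14 (−0.79) and Dusp1 (−0.69).

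Regulators of the actin skeleton, among them the Cdc42, Nck and Pak pathways, were higher in 21 of 24 cases and lower in 2 (20 and 2 without WT IL-2 replicate 1, median 0.50). Actg1 was at 1963, 2114, 1957 and 2001 CPM with WT IL-2 and 5385, 3779, 4905 and 4987 CPM with 3x (1.25 ± 0.08, adjusted p = 3.64e-12), and Actb rose by 0.91. The kinase Pak1 (−1.15) and Wasl (−0.36) fell. The Turquoise and Green lists hold genes that the study's text named for modules it built on these samples, so their direction is not independent evidence. Of 28 Turquoise genes 23 were higher and 2 lower (22 and 2 without that library), the falls being Il10rb (−0.18) and Sod2 (−0.13), and of 8 Green genes 0 were higher and 7 lower.

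**Figure D3:**
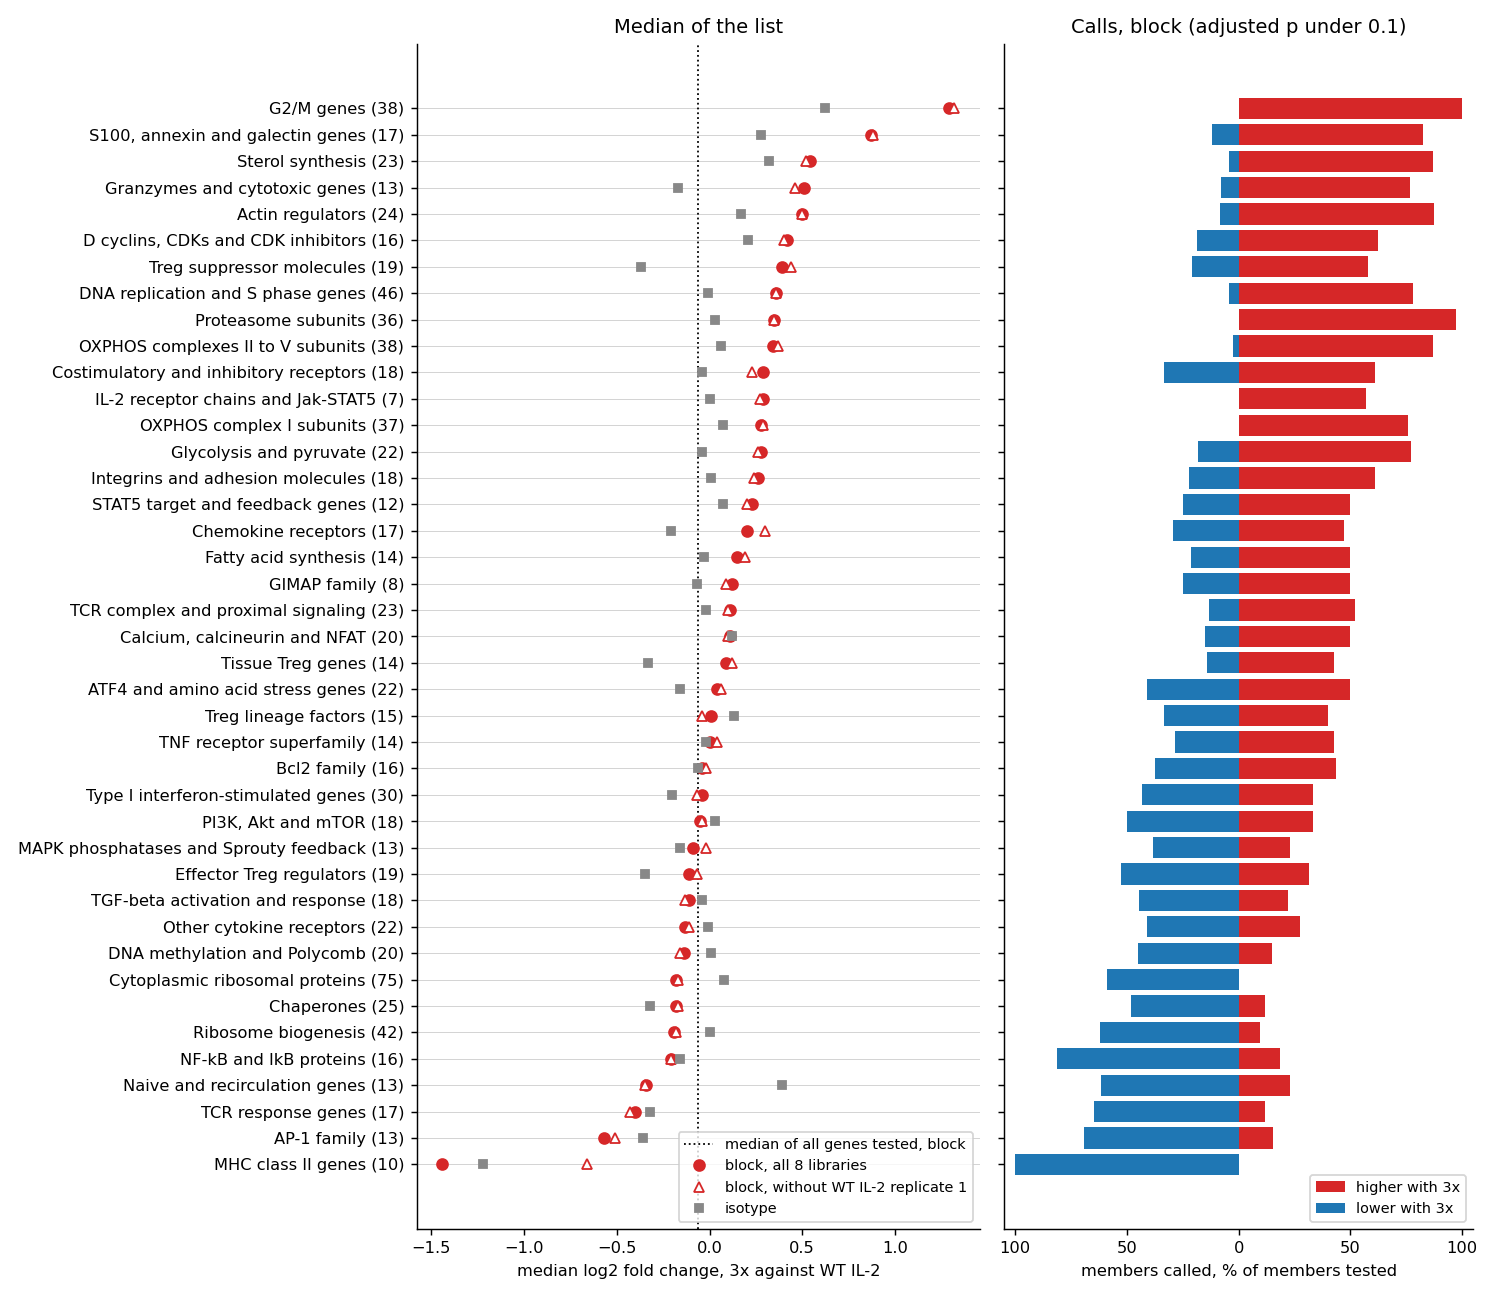
Gene lists with the number of members tested. On the left, each list's median log2 fold change of 3x against WT IL-2 is shown for all 8 blocked libraries, without WT IL-2 replicate 1 and in the isotype arm, with a dotted line at the median of all genes (−0.06). On the right, the bars give the percentage of members called higher (right, red) and lower (left, blue) in blocked Tregs. G2/M genes are called higher in 38 of 38 cases and MHC class II genes lower in 10 of 10.

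Other lists were mixed. Type I interferon-stimulated genes were higher in 10 of 30 cases and lower in 13 (8 and 12 without WT IL-2 replicate 1, median −0.04), with Zbp1 (0.68) and Oas3 (0.64) against Ifit1 (−1.53) and Ifit3b (−1.30), so the Ifitm rises were not shared by the list. Among other cytokine receptors 6 of 22 were higher, led by the IL-12 receptor chains Il12rb2 (0.68) and Il12rb1 (0.49), and 9 lower, led by Csf2rb (−1.57, or −1.02 without WT IL-2 replicate 1) and the decoy receptor Il1r2 (−1.27). In the list of Bcl2 family and other apoptosis genes 7 of 16 were higher, led by Bak1 (0.77), and 6 lower (6 and 7 without that library), with Bmf at −1.10. Amino acid stress genes were higher in 11 of 22 cases, led by Ddit4 (1.05) and Mthfd2 (0.59), and lower in 9 (11 and 8 without that library), led by Pycr1 (−1.27) and Asns (−0.77). TGF-beta genes were higher in 4 of 18 cases, led by Nrros (0.38) and Furin (0.28), and lower in 8 (3 and 9 without that library), led by Tgfbr3 (−0.99) and Tgif1 (−0.98). GIMAP genes were higher in 4 of 8 cases, led by Gimap7 (0.43) and Gimap4 (0.26), and lower in 2, Gimap6 (−0.29) and Gimap3 (−0.21).

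The largest falls were led by genes of myeloid cells, and of the 12 named all but Atf3 shrank by over 1.5 times on the log2 scale without 1 library. Csf3r, the G-CSF receptor of neutrophils, was at 56.4, 1.47, 1.06 and 1.94 CPM with WT IL-2 and 0.61, 0.24, 0.11 and 0.15 CPM with 3x. It fell by 5.71 ± 1.18, with −2.37 without WT IL-2 replicate 1 (adjusted p = 0.0195). The neutrophil genes S100a9 and S100a8 changed by −5.34 and −4.90, or −2.94 and −2.76 without that library, Il1b by −3.84, or −1.27, and Lyz2, the lysozyme of macrophages, by −3.52, or −1.58. Trf (−2.29, −0.70), Mpeg1 (−2.25, −1.03), Pld4 (−2.16, −0.99), Grk3 (−2.01, −1.13) and Cfp (−1.99, −0.57) did likewise, each highest in WT IL-2 replicate 1. Beyond single genes, 12 of 12 tested monocyte and macrophage markers and 11 of 11 B cell markers were lower with 3x, but 3 and 2 without that library, while 7 and 6 of 7 neutrophil and 4 and 4 of 4 plasma cell markers were lower in the 2 fits. All 10 MHC class II genes, which antigen-presenting cells express, were lower (median −1.44), and 6 remained lower without that library (median −0.66). H2-Eb1 was at 357, 89.2, 63.8 and 114 CPM with WT IL-2 and 56.1, 53.2, 60.0 and 45.9 CPM with 3x (−1.53), and H2-Ab1 fell by 1.51, with −0.72 for each without that library.

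Falls that did not depend on WT IL-2 replicate 1 included a few named after their values were seen. Klf4, a factor that restrains T cell division, was at 346, 318, 307 and 324 CPM with WT IL-2 and 94.4, 144, 114 and 113 CPM with 3x (−1.48 ± 0.12, and −1.44 without that library). The chemokine Xcl1 fell by 1.77 ± 0.20 (−1.71 without it) and Zbtb16, which encodes PLZF, by 1.63 ± 0.17 (−1.68 without it). Ly6c2 fell by 1.68 ± 0.26 (−1.58 without it), with 81.9 to 242 CPM against 38.9 to 70.0 CPM.

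**Figure D4:**
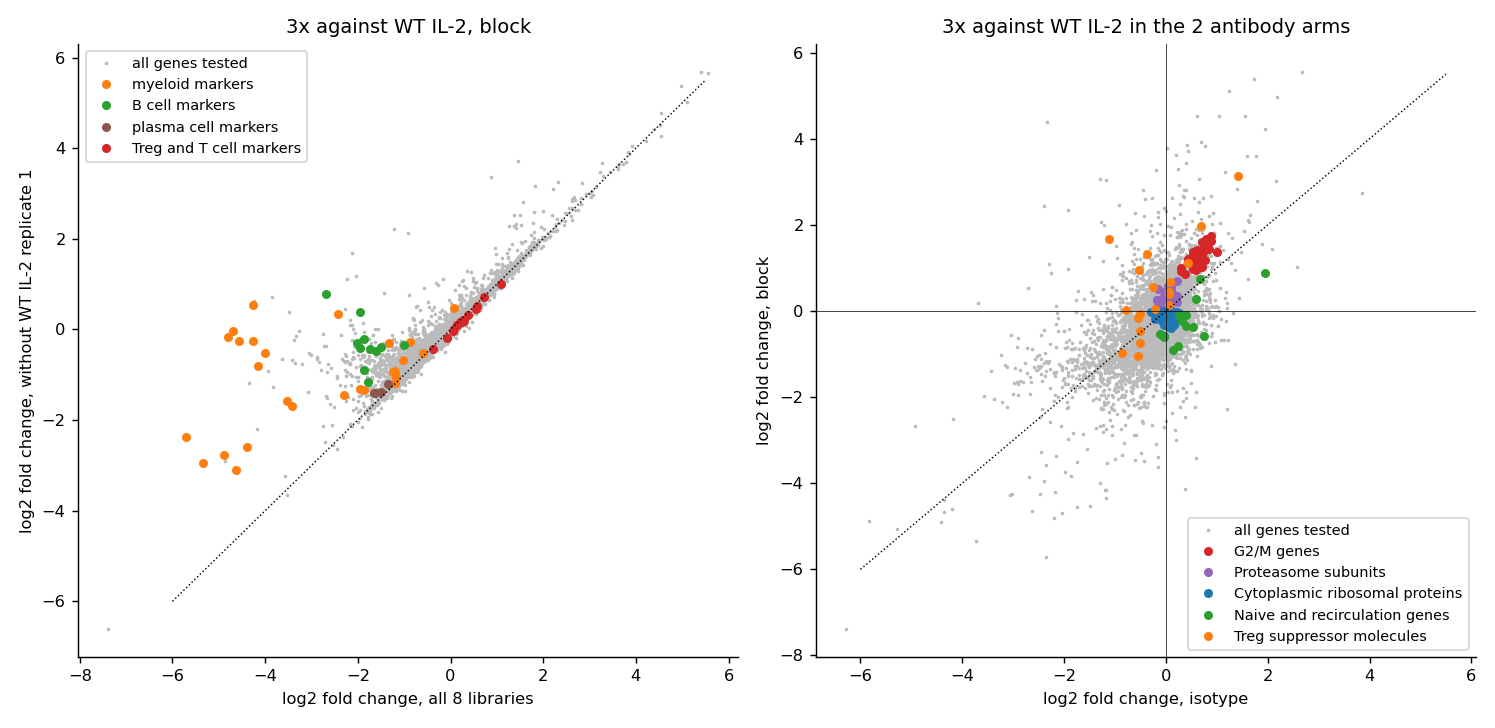
Log2 fold changes of 3x against WT IL-2 for all genes tested, each point a gene and the dotted line equality. On the left, leaving out WT IL-2 replicate 1 moves myeloid and B cell markers toward 0, as Csf3r from −5.71 to −2.37, and leaves Treg and T cell markers near the line. On the right, blocked Tregs are set against isotype Tregs, with G2/M genes above the line (median 1.29 against 0.62) and naive and recirculation genes below it (median −0.34 against 0.39).

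Whether the antibody changed the contrast was tested as the difference between the arms, the log2 fold change of 3x against WT IL-2 with the block minus that with isotype. The difference passed the threshold for 5424 of 12392 genes (43.8%), 2570 positive (20.7%) and 2854 negative (23.0%), and for 5493 of 12349 (44.5%) without WT IL-2 replicate 1. The main positive and negative counts became 2987 and 2158 in a limma fit on log2(FPKM + 1). The 3x and WT IL-2 contrast alone called 4296 genes (34.7%) in the isotype arm. Leaving out isotype WT IL-2 replicate 3a or 3b gave 4967 or 5412 differences, and the counts of these 2 libraries differed from each other by more than sampling noise (chi-square per gene of 29.8, against 6.34 to 29.1 for the other pairs of that group). For 291 genes 3x was higher with the block and lower with isotype, and for 273 the reverse, with both contrasts and the difference called.

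The suppressor genes were among those whose contrast depended on the block. Of the 19, 13 had a positive and 1 a negative difference (14 and 1 without WT IL-2 replicate 1), and the median fold change was 0.39 with the block against −0.37 with isotype. Lag3 was 1.66 higher with 3x under the block and 1.12 lower under isotype, a difference of 2.79 (adjusted p = 3e-08). The values for Il10 were 1.33 and −0.37, a difference of 1.70 (adjusted p = 3.41e-07), and those for Pdcd1 were 1.22 and −0.58. Prdm1 (difference 1.25), Ccr8 (1.27), Icos (1.12) and Ctla4 (0.80) had positive differences as well. Zap70 changed from 0.48 with the block to −0.38 with isotype, a difference of 0.86. For Socs2, Il1rl1 and Mki67 the differences of 0.27, 0.24 and 0.31 did not pass the threshold.

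Among G2/M genes 35 of 38 differences were positive, so that the excess of 3x over WT IL-2 was larger with the block (median 1.29) than with isotype (0.62, 38 of 38 higher). DNA replication genes had 32 of 46 positive differences (35 without WT IL-2 replicate 1) and medians of 0.36 and −0.01, and the proteasome 33 of 36, with 0.35 and 0.03. Ribosomal proteins had 44 of 75 negative differences (42 without that library), with medians of −0.18 and 0.08. The naive and recirculation genes had 12 of 13 negative differences and 0 positive. They were mostly lower with 3x under the block and, in 9 of 13 cases, higher under isotype. The TCR response genes did not separate the arms in this way, with 4 positive and 3 negative differences of 17 (5 and 2 without that library) and medians of −0.40 and −0.32, and the sterol genes had 7 positive and 2 negative of 23 (6 and 2 without that library).

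Differences were named among genes called both with and without WT IL-2 replicate 1 and averaging over 5 CPM in the 16 WT IL-2 and 3x Treg libraries of both arms. By that rule the largest positive ones were Vdr (4.37), Il21 (4.22), Spp1 (3.87), Gcg (3.76) and Lgals7 (3.44). Spp1, which encodes osteopontin, was not called with the block (0.18 ± 0.68, 95% interval −1.23 to 1.60) and was 3.68 lower with 3x under isotype. Without isotype WT IL-2 replicate 2 that value was −2.36 and the difference 2.57 (adjusted p = 0.0223). The largest negative differences by the same rule were Itgad (−3.20), Nfam1 (−1.52), Dse (−1.47), Zfp683 (−1.41) and Rapgef4 (−1.30). Itgad, an integrin subunit of macrophages, was at 89.2 CPM in WT IL-2 replicate 1 and 3.67 to 6.19 CPM in the other 3 libraries, and without that library its fold change with the block was −0.55 and its difference −0.75. The difference for Nfam1 became −0.69. Zfp683, which encodes Hobit, a factor of tissue-resident lymphocytes, fell by 1.49 ± 0.26 with 3x and did not rest on that library (−1.53).

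For reference, blocked PBS libraries were set beside the 2 groups without a test of their own. Mean CPM with PBS, WT IL-2, H16R and 3x was 8.97, 83.3, 534 and 729 for Gzmb, 33.3, 82.4, 250 and 207 for Il10, and 102, 112, 422 and 356 for Lag3. For Foxp3 the means were 810, 793, 1093 and 1033, and for Il2ra they were 351, 372, 486 and 792. For Fosb they were 1857, 1560, 848 and 609. In these means H16R exceeded 3x in Il10, Lag3 and Foxp3 but not in Gzmb or Il2ra.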

How the data were processed

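RNA was sequenced from 32 Treg and 16 conventional T cell libraries. The authors aligned reads to mouse B38 with the OSA aligner of Omicsoft Array Suite and deposited RSEM expected counts (estimated counts, 72.9% of non-zero Treg values whole) and FPKM values per gene. Deposited tables of the authors' comparisons, with log2 fold changes, p-values and scores, were not used. Expected counts were rounded.

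Protein-coding genes over 0.5 CPM in at least 4 Treg libraries (12392) were fitted with edgeR 4.0.16 in R 4.3.3, with TMM factors and 8 groups of Treg libraries in 1 quasi-likelihood model. Calls used an adjusted p (Benjamini-Hochberg) under 0.1, SE was the log2 fold change over the root of F, and intervals are 95%. Limma 3.58.1 and DESeq2 1.42.0 were alternatives. Fits were tested on simulated data. Genes were named as the 12 largest rises and falls called in both fits whose 4 and 4 libraries did not overlap in CPM. Also named were 2 per list and direction, a fixed set, and the 5 largest differences per direction. Except in the fixed set, a mean over 5 CPM was required. Libraries were assigned by their labels, and the comparison, its named members and the lists (43 gene and 12 marker lists) were chosen with earlier results of these data known. Annotation was GENCODE vM21, which names 96.6% of genes. A few named genes are not reported here.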

Additional observations from a re-analysis of the deposited data

Results flagged for a closer look

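Some libraries lay far from the other 3 of their group by Dixon's 95% criterion for 4 samples, which chance meets in about 1 in 20 groups. Of 122 gene groups 16 met it and of 24 marker groups 7. WT IL-2 replicate 1 was high for Csf3r (56.4 CPM), S100a9 (99.1), S100a8 (45.4), Il1b (36.6), Lyz2 (148), Trf (87.4), Mpeg1 (158), Pld4 (78.0), Hspa1a (152), Cfp (78.0), Itgad (89.2) and Dse (20.2). Its summed markers were also high for CD8 T cells (45.8 CPM), B cells (860), monocytes and macrophages (1527) and neutrophils (300.5). In the other WT IL-2 libraries, Il13 was low in replicate 4 (1.27 CPM), Stat5b high in replicate 3 (338) and the stroma sum low in replicate 4 (148). With 3x, Il2rb (1217 CPM) and Zap70 (305 CPM) were low in replicate 2, the B cell sum was high in replicate 3 (160.0) and the CD8 sum high in replicate 4 (35.7).

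The contrast of 3x and WT IL-2 differed between the antibody arms for 5424 genes, 43.8% of all, in the test of the difference. It also did for 112 of the 135 genes named from the lists alone, but these were named for a large change with the block, which the difference contains, so their share is no independent result. Among the largest rises the block minus isotype difference of log2 fold changes was 2.79 for Ifitm1, 3.91 for Epha3, 2.26 for Amotl1, 3.23 for Ggt1, 3.44 for Lgals7, 3.76 for Gcg, 3.43 for Fam20a, 2.01 for 1500009L16Rik, 3.05 for Il13, 2.07 for Ifitm2, 1.72 for Gzmb and 4.37 for Vdr. Among the largest falls it was −1.45 for Trf, −1.73 for Mpeg1, −0.86 for Atf3 and −1.50 for Cfp, of which Trf, Mpeg1 and Cfp were highest in WT IL-2 replicate 1. Without that library these 3 differences were not called, at 0.15 for Trf, −0.51 for Mpeg1 and −0.08 for Cfp, and Atf3 was at −0.57. The call for Trf was also lost on leaving out several other single libraries of either arm (adjusted p up to 0.163), and that for Cfp without 3x replicate 4 (adjusted p = 0.108).

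Of the IL-2 receptor chains Il2ra differed by 0.52, Il2rb by 0.40 and Il2rg by 0.30, and Foxp3 by 0.19, a call lost without WT IL-2 replicate 1 (0.14) or 3x replicate 1 (0.17). Most suppressor and effector genes listed here differed by more, Lag3 by 2.79, Il10 by 1.70, Ccr8 by 1.27 and Prdm1 by 1.25. Icos differed by 1.12, Areg by 0.82, Ctla4 by 0.80 and Tnfrsf18 by 0.59, but Lrrc32 by only 0.27. In the TCR pathway the differences were 0.86 for Zap70, 0.63 for Orai1, 0.39 for Trac (with all biotypes, a call lost without WT IL-2 replicate 1, at 0.32), 0.32 for Stim1 and 0.24 for Lcp2. Among genes called both with and without WT IL-2 replicate 1, further differences were 4.22 for Il21 and 3.87 for Spp1, and −3.20 for Itgad, −1.52 for Nfam1, −1.47 for Dse, −1.41 for Zfp683 and −1.30 for Rapgef4.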

How the results depend on the processing

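Of the alternatives run on named genes, 3863 values kept their direction and side of the threshold, 60 lost the call, 6 gained it and 21 changed sign. A further minimum change of 1 on the log2 scale, up or down, left 1173 genes (373 higher, 800 lower), and 516 for the difference between arms (293 positive, 223 negative). Leaving out each replicate in turn gave 7806 to 8607 calls (3576 to 3871 higher, 4030 to 4736 lower), and 4657 to 5902 for the difference (2253 to 2913 positive, 2195 to 2989 negative). The share of positive differences was 47.4%, and 55.8% with total counts alone, 58.1% on log2(FPKM + 1), 57.7% on log2(FPKM + 0.1), 57.5% with only the groups compared, 61.2% with all biotypes and 61.4% with no CPM filter. The cause was not tested.

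The 6 gained calls were Nr4a1 (−0.22 by limma-voom, −0.27 without 3x replicate 2), Lrrc32 (0.13) and Stat5b (0.08) with all biotypes, Areg (0.20) without WT IL-2 replicate 2 and Irf4 (−0.22) without WT IL-2 replicate 3. Uncalled genes near 0 changed sign. Ikzf2 was 0.01 with all biotypes and −0.18 to 0.02 on leaving out replicates, Lrrc32 −0.01 by limma-voom and −0.03 to 0.11, Areg −0.04 by limma-voom and −0.07 to 0.20, Stat5b −0.01 to 0.06, Irf4 −0.22 to 0.01 and Spp1 −0.26 to 0.43. The 4 genes high in WT IL-2 replicate 1 turned positive without it: Gfra2 ranged from −2.45 to 1.19 (0.75 by limma-voom), Pilra from −2.54 to 1.70 (1.08 by limma-voom, 0.07 on log2(FPKM + 0.1)), Slc45a3 from −2.64 to 1.11 (0.58 by limma-voom) and Tmem26 from −1.78 to 0.81 (0.61 by limma-voom).

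Replicate numbers did not pair the samples: same-numbered 3x and WT IL-2 libraries correlated at 0.05, −0.09, 0.06 and −0.07 in their deviations. With the replicate block 8488 genes were called, 5328 for the difference, and 7866 without WT IL-2 replicate 1. Settings combining other choices with leaving out that library were added after seeing the data. Depth limits genes with few reads, such as Epha3 with WT IL-2, more than others.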
